A study of Homo sapiens with 8 samples.

Results

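The genes described here are 10 markers of undifferentiated human embryonic stem cells whose RNA could still be read in oligodendrocyte progenitor cells (OPCs): POU5F1, NANOG, ESRG, L1TD1, TDGF1, LIN28A, LIN28B, DPPA4, GDF3 and SALL4. They were taken by name from the deposited transcript and gene tables, and all 10 were found among the 58217 genes matched to the annotation. The study derived OPCs from the human embryonic stem cell line H9, an established line, and asked how the coating of the culture plate changes them. OPCs without forced expression of SOX10 were kept for 2 days on Matrigel (2 libraries, replicates 2 and 3), on recombinant vitronectin (VN, 3 libraries) or on VNP2, a vitronectin-derived peptide that carries the integrin-binding RGD motif and is fused to mussel adhesive protein (3 libraries). Matrigel, a basement membrane extract from a mouse tumour, served as the control substrate. All 8 cultures shared the cell line and an OPC medium with retinoic acid, a Smoothened agonist, insulin and basic fibroblast growth factor. The OPCs came from 1 line, and no library of undifferentiated cells was compared, so a level below cannot be given as a share of the stem cell level. No source says whether the replicates were separate differentiations, and p-values then measure only the spread between these libraries.

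The undifferentiated state of human stem cells rests on the transcription factors POU5F1 (OCT4), NANOG and SOX2, which bind each other's regulatory DNA and hold one another active. Around this core stand SALL4, a zinc finger repressor that works with it, and DPPA4, a chromatin protein of the early embryo. TDGF1 (Cripto) is a co-receptor of the ligand NODAL and GDF3 a ligand of the same family, LIN28A and LIN28B are RNA-binding proteins that block the maturation of let-7 microRNAs, L1TD1 is an RNA-binding protein derived from a transposon, and ESRG is a long noncoding RNA driven by an endogenous retrovirus. POU5F1, NANOG and TDGF1 are silenced early when stem cells become neural, whereas LIN28A, LIN28B and SALL4 are also known in early neural progenitors.

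The libraries held 37997896 to 39429453 estimated counts, of which 98.79 to 98.88% fell in matched transcripts, and 18201 genes passed the filter on low counts, all 10 pluripotency genes among them. The OPC label was borne out in part by its markers. OLIG2 stood at 40.0 to 54.6 TPM (transcript abundance scaled to length and to the library total), OLIG1 at 47.6 to 70.1 TPM and NKX2-2 at 13.4 to 19.0 TPM, while PDGFRA reached 3.67 to 4.98 TPM and SOX10, the defining factor of the lineage, only 0 to 0.078 TPM. SOX2, which stem cells and neural progenitors share, lay at 344.7 to 426.9 TPM. Markers of mesenchymal cells were also abundant, with COL1A1, COL1A2, COL3A1, LUM and DCN summing to 478.3 to 490.5 TPM on Matrigel, 548.4 to 582.9 on VN and 465.0 to 501.3 on VNP2. The sum covers changes in opposite directions. COL1A1, a fibrillar collagen chain, fell in every pair, from 151 (replicate 2) and 168 (replicate 3) TPM on Matrigel through 111.3 to 125.7 on VN to 60.99 to 64.9 on VNP2 (log2 -1.41 ± 0.0658 for VNP2 against Matrigel, edgeR adjusted p = 3e-07). On VNP2 against Matrigel the other 4 genes of the list rose, by log2 0.28 to 0.34. On VN against Matrigel COL1A2, LUM and DCN rose, and on VNP2 against VN, COL3A1 was the gene called higher. In the same order of pairs, 7.44, 5.66 and 3.09% of all tested genes were called higher and 9.13, 9.6 and 2.01% lower. At an unadjusted edgeR p under 0.05, 1 gene of the list was higher and 3 were lower on VNP2 against VN. DESeq2 called 1 higher and 2 lower there, and limma 0 higher and 1 lower. The part of these cells in the results below was not tested.

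Levels per length fell into a high and a low class. LIN28B had the highest level, with 57.2 to 57.7 TPM on Matrigel, 53.9 to 57.7 on VN and 58.0 to 59.7 on VNP2. LIN28A was next, with 57.7 and 54.98 TPM in the Matrigel libraries, 39.2 to 41.4 on VN and 36.0 to 38.2 on VNP2, so that the pair overlapped on Matrigel and stood apart on VN and VNP2. DPPA4 followed at 30.04 to 37.4 TPM and SALL4 at 18.9 to 23.0 TPM. These 4 genes made up 90.9 to 97.0% of the summed TPM of the 10 genes in every library. Of all 58217 matched genes, 5.21% had a mean level above that of LIN28B, 6.98% above LIN28A, 8.61% above DPPA4 and 12.07% above SALL4. Only 18201 of the matched genes passed the filter on low counts, so these shares rank the genes among many of low count. The other 6 genes were low. POU5F1 lay at 1.61 to 7.23 TPM, ESRG at 0.664 to 3.16 TPM, TDGF1 at 0.307 to 3.14 TPM, GDF3 at 0.516 to 1.11 TPM, L1TD1 at 0.517 to 1.02 TPM and NANOG at 0.054 to 0.392 TPM. ESRG and TDGF1 overlapped each other, as did GDF3 and L1TD1. Above NANOG stood 34.21% of the matched genes, which is 19917 genes and more than passed the filter. In bulk RNA, fewer cells that express a gene and less RNA of it per cell cannot be told apart.

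**Figure D1:**
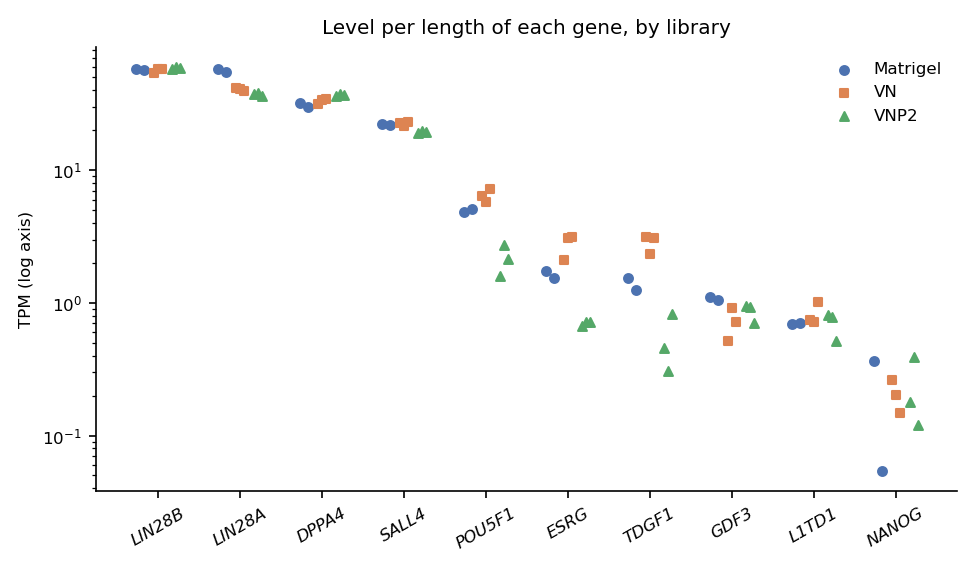
Level of each gene in each library in TPM on a log axis, with genes ordered by their mean over the 8 libraries and one symbol per library for Matrigel, VN and VNP2. LIN28B, LIN28A, DPPA4 and SALL4 stayed above 18.9 TPM in every library, and POU5F1, ESRG and TDGF1 were lowest on VNP2.

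The LIN28 genes are shown with the sequences that tie them to let-7, because LIN28 proteins and let-7 act on each other. All 9 human mature let-7 and miR-98 sequences in RefSeq (GRCh38.p14) share the seed GAGGUAG at bases 2 to 8, capitalized here in the first of them.
let-7a-5p: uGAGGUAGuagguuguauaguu
The DNA letters that pair with this seed, CTACCTC, were looked for on the sense strand after the stop codon of the main transcripts in GENCODE v29 (GRCh38). LIN28A-201 had 1 match in 2753 bases, at chr1:26427363-26427369 on the plus strand. LIN28B-201 had 4 matches in 4549 bases, from chr6:105078827-105078833 to chr6:105082875-105082881 on the plus strand. SALL4-201 had 1 match in 1934 bases, at chr20:51782924-51782930 on the minus strand. Each window below spans 25 bases of the last exon, written along the transcript, with the match in capitals.
LIN28A-201: cagcctattgaaCTACCTCattttt
LIN28B-201, match at base 44: cggttgcaaagtCTACCTCatgcaa
LIN28B-201, match at base 2471: tgatgatagtaaCTACCTCtgagtt
LIN28B-201, match at base 2653: tacagcaaaaggCTACCTCatagtt
LIN28B-201, match at base 4092: tgatggtgttgaCTACCTCttgaat
SALL4-201: gctttaatttatCTACCTCatttat
Positions are counted from the first base after the stop codon. Among regions within 10% of the same length, 12.3% held at least 1 match at the length of LIN28A-201, 11.3% at that of SALL4-201 and 24.1% at that of LIN28B-201, where 0.3% held as many as 4. The main transcripts of DPPA4, POU5F1, TDGF1, NANOG, GDF3 and L1TD1 held no CTACCTC after the stop codon. A match is a description of letters, and mature microRNAs were not measured.

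Promoter windows were taken from RefSeq (GRCh38.p14, 250 bases before to 50 after a start) for L1TD1, TDGF1, DPPA4, LIN28B, GDF3 and NANOG, which gave 8 windows. POU5F1, ESRG, LIN28A and SALL4 had no window there. On either strand, none of the 8 held an exact copy of the octamer ATGCAAAT, a motif bound by POU5F1, against 1.77% of all 35116 windows. NANOG and DPPA4 held it with 1 mismatch, against 17.1%. The SOX element ACAATG was in 5 of the 8 windows, against 10.78% of all. Both windows of TDGF1 are among the 5, and in 1 of them the match lies after the start. In the NANOG window an octamer with 1 mismatch, ttttgcat on the reverse strand, lies just before the SOX element. The lack of an exact copy is therefore not the lack of a site. The TATA element TATAAA was in the NANOG window alone, against 11.53% of all. The bases upstream of the start are shown for the second start of TDGF1, a gene that changed with the substrate, and for NANOG, a gene without a detected difference. The SOX element, or its reverse complement CATTGT, is in capitals, and the single capital T that ends the NANOG stretch is the first base of its TATA element, which runs on past the start.
TDGF1, chr3:46577538-46577787, plus strand: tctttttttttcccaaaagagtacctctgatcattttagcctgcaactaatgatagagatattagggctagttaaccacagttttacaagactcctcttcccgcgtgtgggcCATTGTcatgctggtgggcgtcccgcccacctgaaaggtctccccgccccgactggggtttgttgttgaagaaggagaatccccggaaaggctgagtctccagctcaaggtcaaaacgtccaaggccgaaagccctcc
NANOG, chr12:7789152-7789401, plus strand: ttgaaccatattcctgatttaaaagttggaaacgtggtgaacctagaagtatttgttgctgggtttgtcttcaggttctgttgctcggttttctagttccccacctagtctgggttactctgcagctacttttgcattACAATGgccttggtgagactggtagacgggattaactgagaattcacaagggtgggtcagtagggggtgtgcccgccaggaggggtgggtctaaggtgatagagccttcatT

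Counts were tested for the 3 pairs of substrates in one edgeR quasi-likelihood fit of all libraries, and the threshold for a call was an adjusted p of 0.05 over the 18201 tested genes. On VNP2 compared with VN, 4 of the 10 genes fell (POU5F1, ESRG, TDGF1 and SALL4) and 0 rose by edgeR, where 2.01% of all tested genes were called lower and 3.09% higher. At an unadjusted p under 0.05, 2 were higher there, and 0 were with DESeq2 or limma. On VNP2 compared with Matrigel, 5 fell (POU5F1, ESRG, TDGF1, LIN28A and SALL4) and 1 rose (DPPA4), where 9.13% of all genes were called lower and 7.44% higher. On VN compared with Matrigel, 1 fell (LIN28A) and 1 rose (ESRG), where 9.6% of all genes were called lower and 5.66% higher. In either direction, 5.1, 16.6 and 15.3% of all genes were called in these comparisons. The median log2 fold change of the 10 genes was -0.149, -0.325 and 0.0962 in the same order, beside 0.000729, 0.00243 and 0.00436 over all tested genes. The 3 comparisons share libraries and are not independent. The counts of 4 and 6 genes moved to 3 and 3 without Matrigel replicate 2, and the count of 2 became 1 without either Matrigel library or without VN replicate 2 or 3. Over all genes, leaving out VN replicate 1, which differed most from the other libraries of its group, raised the count of calls between VNP2 and VN from 928 to 1985. This library was nearer to the VNP2 libraries than to its own group. Its median chi-square for a difference in counts was 2.38 and 2.77 against VN replicates 2 and 3. Against VNP2 replicates 1, 2 and 3 it was 1.34, 1.99 and 1.32.

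**Figure D2:**
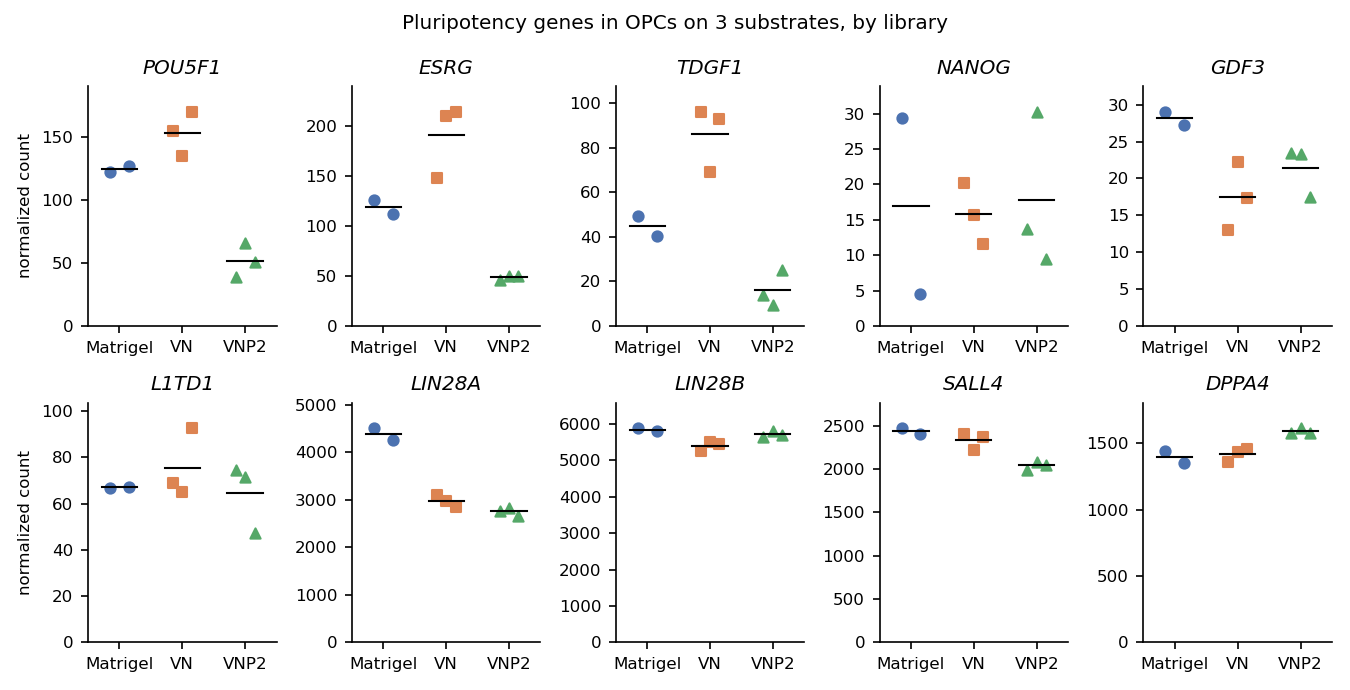
Normalized counts (vertical axes, from 0) of the 10 genes in each library, with 1 panel per gene, 1 symbol per library and a bar at the group mean. POU5F1, ESRG and TDGF1 show the order VN, Matrigel, VNP2 from high to low with no overlap between groups, and LIN28A stands highest on Matrigel. NANOG scatters from 4.47 to 29.3 within Matrigel alone, where its estimated counts before the correction for transcript length were 5.81 and 11.0.

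POU5F1, the central transcription factor of the undifferentiated state (ENSG00000204531, chr6:31164337-31180731, minus strand, GRCh38), was lowest on VNP2. Its normalized counts (estimated counts corrected for library size and transcript length) were 122.7 and 126.8 on Matrigel, 155 (replicate 1), 135.1 and 170.3 on VN, compared with 39 (replicate 1), 65.6 and 51.1 on VNP2. Every VNP2 library lay below every Matrigel library, and every VN library above them. The fall on VNP2 was 2.95-fold from VN (log2 -1.56 ± 0.182 SE, edgeR adjusted p = 0.000767) and 2.4-fold from Matrigel (log2 -1.26 ± 0.203, edgeR adjusted p = 0.00176). The difference between VN and Matrigel did not pass the test (log2 0.30 ± 0.189, edgeR adjusted p = 0.33).

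ESRG, the retrovirus-driven noncoding RNA (ENSG00000265992, chr3:54632122-54639857, minus strand, annotated as sense intronic and lying within CACNA2D3, which runs on the plus strand), had the same order. The Matrigel libraries held 126.5 and 112.3 normalized counts, the VN libraries 148.5, 210.1 and 214.8, and the VNP2 libraries 46.3, 50.1 and 49.7. The VNP2 libraries were close together and the groups did not overlap. ESRG fell 3.91-fold from VN to VNP2 (log2 -1.97 ± 0.17, edgeR adjusted p = 0.000117) and 2.45-fold from Matrigel to VNP2 (log2 -1.29 ± 0.19, edgeR adjusted p = 0.000985). It rose 1.6-fold from Matrigel to VN (log2 0.68 ± 0.176, edgeR adjusted p = 0.0267). This last call was lost with the libraries of the pair alone (edgeR adjusted p = 0.0539) and without Matrigel replicate 2 (0.0908), Matrigel replicate 3 (0.17), VN replicate 2 (0.0822) or VN replicate 3 (0.0867).

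TDGF1, the NODAL co-receptor (ENSG00000241186, chr3:46574534-46582463, plus strand), changed most. Its normalized counts were 49.2 and 40.2 on Matrigel, 96.1, 69.2 and 92.7 on VN, against 13.9, 9.34 and 25.0 on VNP2. The 3 groups again did not overlap, but a count of 9 to 25 carries a wide counting error. TDGF1 fell 5.43-fold from VN to VNP2 (log2 -2.44 ± 0.31, edgeR adjusted p = 0.00121) and 2.83-fold from Matrigel to VNP2 (log2 -1.50 ± 0.348, edgeR adjusted p = 0.0142). The latter call was lost without Matrigel replicate 2 (log2 -1.34, edgeR adjusted p = 0.0989). From Matrigel to VN the log2 difference was 0.94 ± 0.309 (edgeR adjusted p = 0.0666), and it passed the threshold with the libraries of the pair alone (0.0339) and without VNP2 replicate 2 (0.0446) or 3 (0.0327). POU5F1, ESRG and TDGF1 together made up 4.51 and 4.53% of the summed TPM of the 10 genes on Matrigel, 6.67 to 7.96% on VN and 1.75 to 2.36% on VNP2.

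LIN28A (ENSG00000131914, chr1:26410778-26429722, plus strand) was high on Matrigel and lower on both vitronectin-based substrates. It held 4502 and 4262 normalized counts on Matrigel, 3096, 2970 and 2849 on VN, compared with 2771, 2835 and 2663 on VNP2. No library on VN or VNP2 reached the Matrigel libraries. LIN28A fell 1.47-fold on VN (log2 -0.56 ± 0.0486, edgeR adjusted p = 3.58e-05) and 1.59-fold on VNP2 (log2 -0.67 ± 0.0486, edgeR adjusted p = 6.97e-06). Between VNP2 and VN, the log2 difference of -0.11 ± 0.0445 did not pass the test (edgeR adjusted p = 0.21).

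Its paralog LIN28B (ENSG00000187772, chr6:104936616-105083332, plus strand) moved little. LIN28B held 5878 and 5790 normalized counts on Matrigel, 5261, 5487 and 5447 on VN, against 5637, 5788 and 5694 on VNP2. The libraries of the 3 substrates lay within a narrow band, and none of the pairs passed the test. The log2 differences were -0.11 ± 0.0355 for VN against Matrigel (edgeR adjusted p = 0.0599), -0.03 ± 0.0356 for VNP2 against Matrigel (0.618) and 0.08 ± 0.0319 for VNP2 against VN (0.198). On the TPM scale, the ratio of LIN28B to LIN28A was 1 and 1.04 on Matrigel, 1.30 to 1.46 on VN and 1.56 to 1.64 on VNP2. The difference between the paralogs was not itself tested.

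SALL4, the zinc finger repressor (ENSG00000101115, chr20:51782331-51802520, minus strand), was slightly lower on VNP2. Its normalized counts were 2469 and 2405 on Matrigel, 2403, 2217 and 2363 on VN, compared with 1993, 2085 and 2045 on VNP2. Every VNP2 library lay below all the others. SALL4 fell 1.19-fold from Matrigel (log2 -0.26 ± 0.0489, edgeR adjusted p = 0.00486) and 1.14-fold from VN (log2 -0.19 ± 0.044, edgeR adjusted p = 0.034). Without Matrigel replicate 2 the first became log2 -0.23 with an edgeR adjusted p of 0.0594. The second call was the least stable of those on VNP2 against VN, and it held only when VN replicate 1 or 2 was the library left out. Without another library its edgeR adjusted p was 0.0583 (Matrigel replicate 2), 0.0577 (Matrigel replicate 3), 0.109 (VN replicate 3), 0.131 (VNP2 replicate 1), 0.0682 (VNP2 replicate 2) or 0.107 (VNP2 replicate 3).

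DPPA4, the early embryonic chromatin protein (ENSG00000121570, chr3:109326141-109337572, minus strand), was the only one of the 10 genes called higher on VNP2. It held 1445 and 1352 normalized counts on Matrigel, 1362, 1431 and 1460 on VN, against 1577, 1613 and 1575 on VNP2. The VNP2 libraries lay above all the others, while Matrigel and VN overlapped. The rise from Matrigel was 1.14-fold (log2 0.18 ± 0.0537, edgeR adjusted p = 0.0411), and the log2 difference of 0.16 ± 0.0477 from VN did not pass the test (edgeR adjusted p = 0.0843). Without length offsets the first was log2 0.159 with an edgeR adjusted p of 0.147. It also lost the call without Matrigel replicate 2 (0.0657), Matrigel replicate 3 (0.273), VN replicate 2 (0.0533), VNP2 replicate 1 (0.0825), VNP2 replicate 2 (0.112) or VNP2 replicate 3 (0.0848). Between VN and Matrigel the log2 difference was 0.02 ± 0.0537 (edgeR adjusted p = 0.847).

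NANOG, GDF3 and L1TD1 did not pass the test in any pair. NANOG (ENSG00000111704, chr12:7787794-7799141, plus strand) had estimated counts of 11.0 and 5.81 on Matrigel, 21.0, 14.6 and 15.5 on VN, compared with 19.1, 23.0 and 12.6 on VNP2, before any correction. After the correction for transcript length, the Matrigel libraries stood at 29.3 and 4.47 and overlapped both other groups. In Matrigel replicate 2, 2.6 counts given to the processed transcript NANOG-203 made up 78.86% of the TPM of NANOG, against 0% in Matrigel replicate 3. In VNP2 replicate 2, 1.0 count of it made up 29.88%. The corrected levels of NANOG in these libraries thus rest on the assignment of very few reads. The log2 differences were 0.33 ± 0.76 for VN and 0.44 ± 0.76 for VNP2 against Matrigel, with edgeR adjusted p = 0.816 and 0.765. Without length offsets they were 0.985 and 1.05 (edgeR adjusted p = 0.126 and 0.107). With the offsets, they became -0.903 and -0.798 without Matrigel replicate 3 and 1.79 and 1.89 without Matrigel replicate 2. No difference of NANOG was detectable at this depth.

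GDF3, the NODAL-related ligand (ENSG00000184344, chr12:7689782-7695776, minus strand), held 29.1 and 27.2 normalized counts on Matrigel, 13.0, 22.2 and 17.4 on VN, against 23.5, 23.3 and 17.5 on VNP2. The Matrigel libraries were above all the others, yet the log2 differences of -0.68 ± 0.314 for VN and -0.39 ± 0.308 for VNP2 did not pass the test (edgeR adjusted p = 0.175 and 0.451). L1TD1, the transposon-derived RNA-binding protein (ENSG00000240563, chr1:62194831-62212328, plus strand), held 66.6 and 67.4 normalized counts on Matrigel, 69.0, 65.0 and 92.7 on VN, compared with 74.5, 71.8 and 47.5 on VNP2. All 3 groups overlapped, and its log2 differences were 0.17 ± 0.237 for VN against Matrigel, -0.05 ± 0.239 for VNP2 against Matrigel and -0.23 ± 0.211 for VNP2 against VN (edgeR adjusted p = 0.678, 0.917 and 0.611). The sign for VNP2 against Matrigel turned to 0.13 without VNP2 replicate 3.

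**Figure D3:**
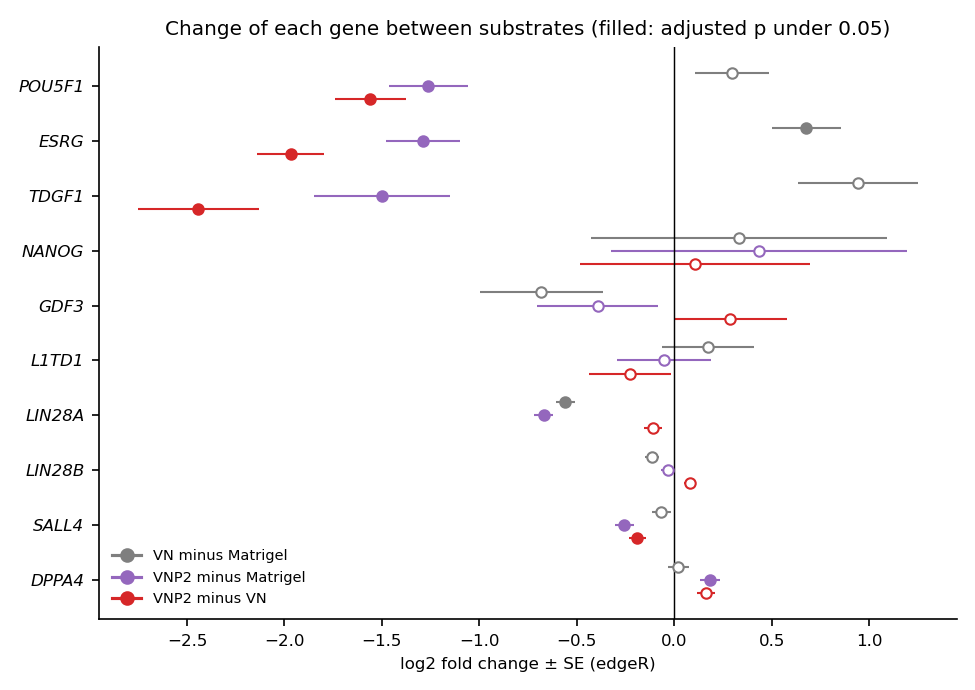
Log2 fold change (horizontal axis) with its standard error for each gene in the 3 pairs of substrates, with filled symbols for an edgeR adjusted p under 0.05. TDGF1, ESRG and POU5F1 reach -2.44, -1.97 and -1.56 for VNP2 against VN, while LIN28B stays within 0.12 of 0 in all 3 pairs.

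Among the 10 genes, the libraries did not overlap for 7 in VN against Matrigel, 8 in VNP2 against Matrigel and 7 in VNP2 against VN, where 44.4, 48.1 and 23.6% of all tested genes did not overlap. Groups of 2 and 3 libraries often separate, as these shares show, and LIN28B and GDF3 on VN against Matrigel are examples of genes without overlap that were not called.

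The transcript estimates show which isoforms carried the signal. POU5F1-201, the transcript of the full-length protein, held most counts of POU5F1, with 88.4 to 98.0 estimated counts on Matrigel, 147.5 to 169.8 on VN and 26.5 to 49.0 on VNP2. The shorter POU5F1-208 added 0 to 21.6 counts and was at 0 in VN replicate 2. By TPM, which corrects for length, POU5F1-201 made up 55.8 to 63.8% of POU5F1 on Matrigel, 73.8 to 100% on VN and 52.6 to 65.9% on VNP2. POU5F1-208 made up 36.2 to 40.9%, 0 to 26.2% and 32.9 to 47.4%, a larger share on Matrigel and VNP2 than in any VN library. TDGF1-201 had 46.7 and 45.7 counts on Matrigel, 63.6 to 79.5 on VN and 11.0 to 19.7 on VNP2, and the retained-intron transcript TDGF1-204 had 5.8 to 14.1 on VN and at most 3.2 elsewhere. LIN28A-201 made up 75.1 to 85.0% of the TPM of LIN28A and LIN28A-202 the rest, and the counts of each were higher in both Matrigel libraries than in any other library. LIN28B-201 carried at least 95.3% of LIN28B. DPPA4-201 carried 62.6 to 69.9% of DPPA4, and the retained-intron transcript DPPA4-203 12.3 to 15.4%. SALL4-201 carried 77.9 to 86.1% of SALL4. ESRG, L1TD1 and GDF3 have a single matched transcript. No uncertainty of the assignment of reads to transcripts was used, so these shares were not tested.

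**Figure D4:**
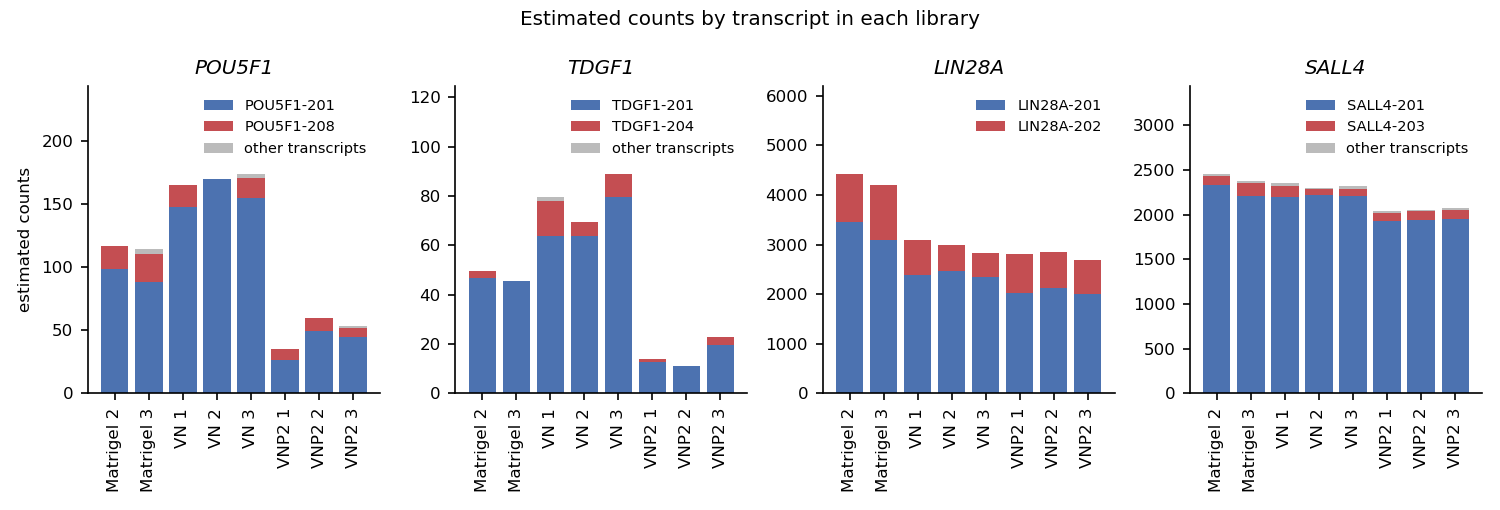
Estimated counts (stacked bars, vertical axes from 0) of the most abundant transcripts of POU5F1, TDGF1, LIN28A and SALL4 in each of the 8 libraries, with the remaining transcripts in grey. The order of the substrates for POU5F1 and TDGF1 is carried by POU5F1-201 and TDGF1-201.

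Some of these genes share sequence with other parts of the genome. By gene name, POU5F1 has 7 annotated copies, which held 219.9 estimated counts over all libraries beside 887.6 for POU5F1 itself. Their likeness in sequence was not measured. The copies held 21.5 to 33.9 counts per library, of which POU5F1B alone held 19.53 to 31.85. Adding only the pseudogene copies left the fall of POU5F1 on VNP2 at log2 -1.52 from VN and -1.22 from Matrigel. Adding all copies, POU5F1B among them, reduced it to log2 -1.14 from VN and -0.934 from Matrigel. Both were still called (edgeR adjusted p = 0.000594 and 0.00119). NANOG has 11 such copies with 40.9 counts beside 122.7, and TDGF1 has 7 with 20.9 beside 381.1, so that the levels of NANOG in particular are uncertain. POU5F1 also overlaps TCF19 on the opposite strand and PSORS1C3 on its own, and TDGF1 overlaps LRRC2 on the opposite strand. The library kit kept the strand, but whether the authors' quantification used it is not given in the sources used here.

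Other genes of the undifferentiated state were called in both directions. Of 31 in the list, 12 were too low to be tested, among them UTF1, DPPA2, DPPA3, DPPA5 and FGF4. The noncoding RNAs LINC00678 and LNCPRESS1 were also untested. LINC00678 held 10 and 10 estimated counts on Matrigel, 5 to 9 on VN and 1 to 2 on VNP2. LNCPRESS1 held 7 and 7, 7 to 13 and 1 to 4, so that both were lowest on VNP2 at counts of 4 or fewer. In the other untested genes the VNP2 libraries did not all lie below the rest. LINC-ROR held 1 and 5, 1 to 3 and 0 to 5 counts, for example, and FOXD3 held 2 and 3, 2 to 5 and 3 to 6. On VNP2 against VN, 1 of the 19 tested rose and 2 fell, with a median log2 fold change of -0.146, where 5.1% of all genes were called. The gene that rose was KLF5, a factor of the naive state that epithelia also express, with 165.1, 225.4 and 173 (replicate 3) normalized counts on VN and 275.2, 445.7 and 265 (replicate 3) on VNP2 (log2 0.79 ± 0.197, edgeR adjusted p = 0.0466). Those that fell were VRTN (log2 -1.83 ± 0.376, edgeR adjusted p = 0.0196) and HHLA1 (log2 -2.84 ± 0.694, edgeR adjusted p = 0.0433). HHLA1 had only 0 to 3.88 normalized counts on VNP2. In this pair DESeq2 called 2 genes of the list higher and 0 lower, and limma called 0 higher and 1 lower. At an unadjusted edgeR p under 0.05, 6 were higher and 5 lower, so the balance of directions depends on the tool. ZFP42, a zinc finger marker of the state, lay at 0.303 and 0.461 TPM on Matrigel, 0.449 to 0.535 on VN and 0.091 to 0.255 on VNP2 and was not called. On VNP2 against Matrigel, 5 of 19 rose and 2 fell (median log2 0.0898), where 16.6% of all genes were called. On VN against Matrigel 1 rose and 1 fell (median log2 0.241), where 15.3% were. The de novo DNA methyltransferase DNMT3B rose on VN (log2 0.25 ± 0.0485, edgeR adjusted p = 0.00747) and on VNP2 (log2 0.41 ± 0.0485, edgeR adjusted p = 0.000243) against Matrigel. The neuropeptide gene GAL fell on both, by 1.76 and 2.00 on the log2 scale (edgeR adjusted p = 0.000927 and 0.000305).

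NODAL, the ligand that needs TDGF1, was itself at 0 to 0.143 TPM and was not tested. Of the other 12 genes described of its pathway, 1 fell on VNP2 against VN (median log2 -0.0338), 1 rose and 1 fell on VNP2 against Matrigel (0.114), and 1 rose on VN against Matrigel (0.169). Over all tested genes 5.1, 16.6 and 15.3% were called in these pairs, so the counts for this list are near or below the background. LEFTY2, a secreted inhibitor and target of NODAL signalling, held 168.8 and 159.9 normalized counts on Matrigel, 145.9, 129 (replicate 2) and 109.8 on VN, against 63 (replicate 1), 62.5 and 69.2 on VNP2. It fell on VNP2 from VN (log2 -0.98 ± 0.143, edgeR adjusted p = 0.00297) and from Matrigel (log2 -1.34 ± 0.155, edgeR adjusted p = 0.00019). ACVR2B, a type II receptor of the pathway, rose slightly on VN (log2 0.17 ± 0.0399, edgeR adjusted p = 0.0149) and on VNP2 (log2 0.14 ± 0.0399, edgeR adjusted p = 0.0395) against Matrigel.

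Genes of the let-7 side of the LIN28 genes were called mainly on VNP2 against Matrigel. Of 16 tested genes of this axis, 0 of either direction were called by edgeR on VNP2 against VN, 1 rose and 3 fell on VNP2 against Matrigel, and 1 fell on VN against Matrigel, with medians of -0.0295, 0.0156 and -0.00614 on the log2 scale. Over all genes 5.1, 16.6 and 15.3% were called. On VNP2 against VN, 6 of the 16 reached an unadjusted p under 0.05, as did 3600 of all 18201 genes, and DESeq2 called 3 and limma 0. TUT4, the enzyme that adds uridines to LIN28-bound let-7 precursors, rose on VNP2 against Matrigel (log2 0.28 ± 0.0449, edgeR adjusted p = 0.00166). The let-7 target ARID3B fell on VN (log2 -0.19 ± 0.0415, edgeR adjusted p = 0.0115) and on VNP2 (log2 -0.24 ± 0.0414, edgeR adjusted p = 0.00305), and MIR100HG, the host transcript of a let-7 gene, fell on VNP2 (log2 -0.42 ± 0.08, edgeR adjusted p = 0.00515). HMGA2, a let-7 target known from fetal cells, stood at 209.7 to 256.8 TPM and was not called.

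Some epithelial and surface genes of stem cells fell on VNP2, CLDN6, CDH1 and ESRP1 among them. Of 11 tested, 6 fell on VNP2 against Matrigel and 3 on VNP2 against VN, where 9.13 and 2.01% of all genes were called lower, with 0 called higher by edgeR and medians of -0.696 and -0.836 on the log2 scale. At an unadjusted p under 0.05, 1 gene was higher on VNP2 against Matrigel and 0 against VN, and DESeq2 and limma called 0 higher. The count of 6 was 3 with DESeq2, and with genes of a mean count of at least 50 the counts of 6 and 3 were 2 and 1. CLDN6, a tight junction protein of stem cells, held 135.9 and 144.4 normalized counts on Matrigel, 124.3, 109.4 and 93.4 on VN, compared with 29.97, 32.01 and 41.3 on VNP2. It fell 3.16-fold from VN (log2 -1.66 ± 0.179, edgeR adjusted p = 0.000497). CDH1, the epithelial cadherin, held 61.5 and 43.0 on Matrigel, 53.9 to 59.1 on VN and 25.4 to 26.8 on VNP2 (log2 -1.13 ± 0.204 from VN, edgeR adjusted p = 0.01). ESRP1, an epithelial splicing factor, held 17.9 and 26.9 on Matrigel, 33.0 to 41.2 on VN and 9.24 to 9.63 on VNP2 (log2 -1.95 ± 0.28 from VN, edgeR adjusted p = 0.00264). PODXL, a sialomucin of the stem cell surface, fell on both substrates from Matrigel, by 0.54 on VN and by 0.70 on VNP2 on the log2 scale (edgeR adjusted p = 4.75e-05 and 4.77e-06). CLDN4, another tight junction protein, fell by 1.97 and 3.08 (edgeR adjusted p = 0.00546 and 0.000428). EPCAM, an epithelial adhesion protein, was at 4.93 to 5.70 TPM in all libraries and was not called, nor were SPINT2 and CLDN3. RAB25, a small GTPase of epithelia, had the opposite sign (log2 1.58 ± 0.56 on VNP2 against Matrigel, edgeR adjusted p = 0.0847), at 2.63 to 17.5 normalized counts. Whether the same cells carry the epithelial transcripts and those of POU5F1, ESRG and TDGF1 cannot be told from bulk RNA.

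**Figure D5:**
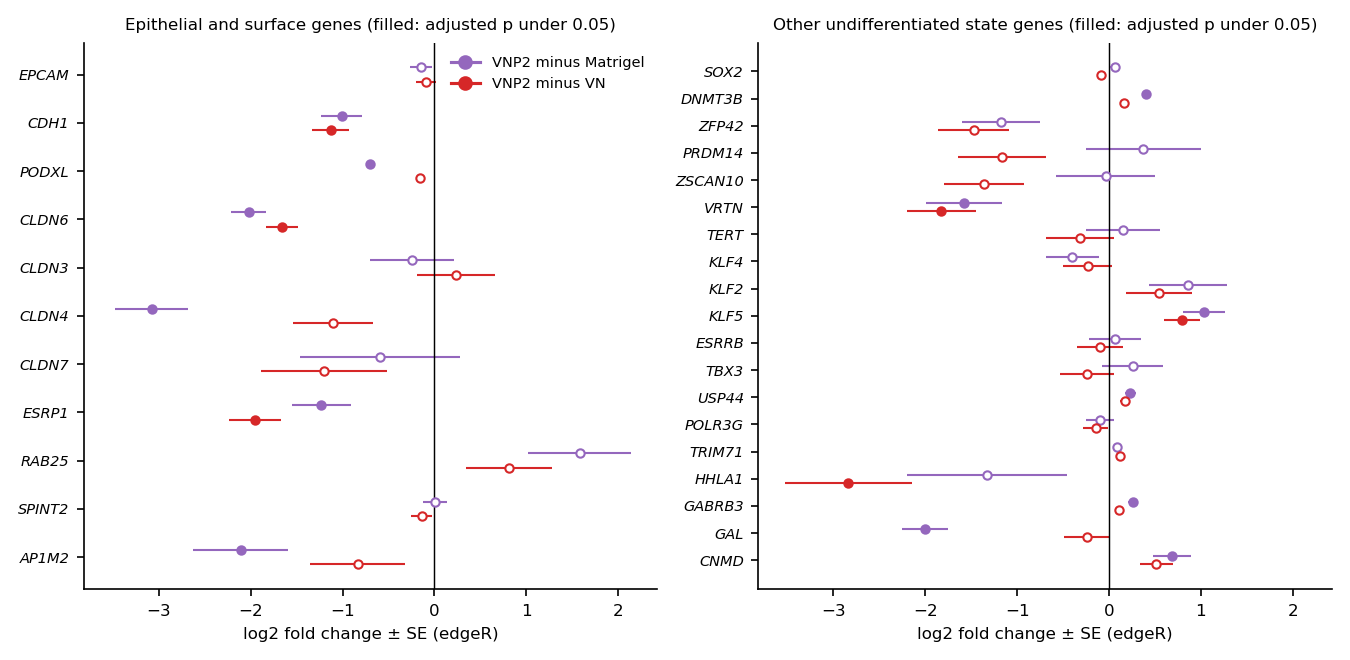
Log2 fold change (horizontal axes) with its standard error for VNP2 against Matrigel and against VN, for the tested epithelial and surface genes of stem cells and for other genes of the undifferentiated state, with filled symbols for an edgeR adjusted p under 0.05. Filled symbols in the epithelial panel lie below 0, and those of the other panel lie on both sides.

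Several paralogs of POU5F1 and SALL4 that neural progenitors use were higher on VN and VNP2 than on Matrigel. Of 7 tested, 4 rose on VN and 5 on VNP2 against Matrigel, and 1 rose on VNP2 against VN, where 5.66, 7.44 and 3.09% of all genes were called higher, with 0 called lower by edgeR in any pair. On VNP2 against VN, 1 was lower at an unadjusted p under 0.05 and 1 by DESeq2, and limma called 0. POU3F1, a POU factor of neural and glial cells, held 356 (replicate 2) and 364.3 normalized counts on Matrigel, 481.9 to 546.5 on VN and 562.1 to 634.4 on VNP2. It rose by log2 0.53 ± 0.0873 on VN and 0.72 ± 0.0869 on VNP2 (edgeR adjusted p = 0.00264 and 0.000264). SALL2, the most abundant paralog by normalized count, was the gene that also rose on VNP2 against VN (log2 0.19 ± 0.0304, edgeR adjusted p = 0.00537).

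The genes whose pattern over the 8 libraries lay closest to POU5F1 were found among 3293 genes that averaged 50 or more normalized counts and were called across the substrates (19.3% of all tested genes were), by the root mean square difference of centred log2 values. They were RIPPLY3 (0.289), ESRG (0.295), MYO5B (0.306), CNTN3 (0.322) and CP (0.322). For ESRG they were FLT1 (0.23), POU5F1 (0.295), MYO5B (0.389), CP (0.392) and RIPPLY3 (0.407). TDGF1 averaged just under 50 normalized counts and was not eligible, so its likeness to POU5F1 and ESRG was not measured. RIPPLY3, a transcriptional repressor of the pharyngeal region, held 500.8 and 449.4 normalized counts on Matrigel, 593.8, 590 (replicate 2) and 609.3 on VN, against 260.4, 320.5 and 287.7 on VNP2. FLT1, a receptor of vascular endothelial growth factor, held 57.4 and 55.1 on Matrigel, 62.6 to 108.2 on VN and 15.7 to 26.1 on VNP2. These values describe a likeness over libraries that share their groups.

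Markers of cells that also express some of the 10 genes, or that stem cells give rise to, were read beside them. Of the germ cell list, DDX4 was at 0 to 0.229 TPM and DAZL at 0.021 to 0.212 TPM, and the summed level of its 8 genes was 16.6 to 17.3 TPM on Matrigel, 15.4 to 16.2 on VN and 15.5 to 17.3 on VNP2. Within it, 1 of 5 tested genes was higher (KIT) and 1 lower (PRDM1) on each of VN and VNP2 against Matrigel. Between VNP2 and VN, 0 were called by edgeR, DESeq2 or limma, and 2 reached an unadjusted edgeR p under 0.05. Over all genes, 5.66 and 9.6% were called higher and lower on VN against Matrigel. The shares were 7.44 and 9.13% on VNP2 against Matrigel and 3.09 and 2.01% on VNP2 against VN. In lists with so few tested genes, 1 call is no result about the list. Mesoderm markers summed to 0.529 to 1.06 TPM on Matrigel, 0.962 to 1.60 on VN and 0.921 to 1.66 on VNP2, with TBXT at 0 in 7 libraries and at 0.022 TPM in the other, and 0 of 2 tested genes were called by edgeR, DESeq2 or limma in any pair, nor reached an unadjusted p under 0.05. Trophoblast markers summed to 1.398 to 1.57, 2.28 to 2.85 and 2.49 to 3.41 TPM, with CGA, CGB5 and ELF5 at no more than 0.105 TPM. TFAP2A, a factor of trophoblast and neural crest, was the trophoblast gene called, higher on VNP2 against Matrigel (log2 0.999 ± 0.203, edgeR adjusted p = 0.00692). Neural crest markers summed to 3.68 to 4.05, 5.41 to 6.66 and 4.19 to 5.36 TPM, with SOX10 at no more than 0.078 TPM. Of 3 tested neural crest genes, 1 rose (TFAP2A) and 1 fell (MITF) on VNP2 against Matrigel, with a median log2 fold change of 0.999. On VNP2 against VN, 1 fell (MITF), with a median of -0.544. TFAP2A went the other way from MITF, at 1.13 and 1.35 TPM on Matrigel, 1.79 to 2.48 on VN and 2.15 to 3.01 on VNP2. MITF, the pigment cell factor, had the order of POU5F1, ESRG and TDGF1, with 2.77 and 2.20 TPM on Matrigel, 3.17 to 3.75 on VN and 1.63 to 2.06 on VNP2. It fell on VNP2 from VN (log2 -0.90 ± 0.131, edgeR adjusted p = 0.00288) and from Matrigel (log2 -0.53 ± 0.147, edgeR adjusted p = 0.0313). The endoderm list summed to 65.4 to 71.5 TPM over all libraries. Most of this came from FOXA2, at 40.5 to 51.6 TPM, and CXCR4, at 17.7 to 21.6 TPM. SOX17, GATA4 and EOMES stayed at or below 0.123 TPM, so the sum is no measure of endoderm cells. AFP was the gene of the list called lower by edgeR, on both substrates against Matrigel, at 1.96 to 33.1 normalized counts. DESeq2 and limma called 0 of its genes. The part of these cell types in the changes of POU5F1, ESRG and TDGF1 was not tested.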

How the data were processed

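Polyadenylated RNA of 8 cultures was sequenced from a stranded kit. The authors trimmed the reads with TrimGalore and ran Salmon on GENCODE v32 transcripts, and they deposited estimated counts and TPM per transcript for each library. Normalized counts per gene, a signal that came from tximport and DESeq2 (1.27.12 in the submitters' processing notes), were deposited as well and served 1 alternative, in which 22837 of their 23350 genes could be matched.

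Transcripts were matched by identifier to GENCODE v29 (GRCh38), 205225 of 226608, and counts were summed per gene and rounded. Transcripts found only in the newer release were not used. Counts were fitted with TMM, offsets for average transcript length and quasi-likelihood tests in edgeR 4.0.16 (R 4.3.3), two-sided, on genes kept by filterByExpr (minimum count 10, minimum total 15), with Benjamini-Hochberg adjustment. Standard errors were taken from the fold change and its F value. TPM was summed per gene and was not tested. A count of 100 has a sampling error near 10%, so counts under 100 give wide standard errors, and these cover counting and library spread only.

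The alternatives were DESeq2 1.42.0, RLE normalization, no length offsets, no filter, a mean count of at least 50, a replicate block, the libraries of a pair alone, limma 3.58.1 on log2 of the authors' normalized counts (pseudocount 1), counts of pseudogene copies added, and each library left out. Adding the counts of POU5F1B to POU5F1, and counting the called genes of 2 lists under every alternative, were chosen after seeing the data. The fit was tested on simulated data of 17456 genes for VNP2 against VN, in which 180 of 200 genes changed 2-fold and 12 unchanged genes were called. The simulation gave all genes the same dispersion, larger than the common dispersion of 0.0037 fitted to the data. Its recovery was not split by count, so it gives no rate for genes as low as NANOG, GDF3 or TDGF1. The genes described, the lists and the rule for likeness (prior count 2, the 5 closest genes) were chosen with earlier results of these data known. From the list of the NODAL pathway 1 gene is not reported here, and its counts and medians leave that gene out. Named genes are the 10 genes, the list genes and the closest genes. Python 3.11.15 with pandas 2.3.3 read the files and sequences.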

Additional observations from a re-analysis of the deposited data

How the results depend on the processing

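Of the 12 called differences of the 10 genes, 7 kept their direction and their call in every alternative in which they were tested. They were POU5F1 and ESRG on VNP2 against both other substrates, TDGF1 on VNP2 against VN, and LIN28A on VN and on VNP2 against Matrigel. TDGF1, with a mean of 47.6 estimated counts, was not tested in the alternative with a mean count of at least 50. None of the results reversed while called. Of 7 same-numbered pairs of libraries, 0 had deviations from their group means correlated over 0.1 (-0.0451 to 0.0158). The correlation ran over all tested genes, where counting error can hide a shared batch, so pairing by replicate number was not settled. With a replicate block, 3389, 3170, 1146 and 3992 genes were called for VN against Matrigel, VNP2 against Matrigel, VNP2 against VN and across the substrates. Without it the counts were 2778, 3016, 928 and 3518. The block ended 1 call among the 10 genes, SALL4 on VNP2 against VN (log2 -0.189, edgeR adjusted p = 0.0505). With limma on the authors' normalized counts the counts of called genes were 1167, 1750, 358 and 1627 in the same order, and 1 gene was called for VN against Matrigel. Limma also ended the calls of ESRG on VN (0.657), TDGF1 on VNP2 against Matrigel (-1.52), DPPA4 on VNP2 against Matrigel (0.184) and SALL4 on VNP2 against VN (-0.189). With the libraries of the pair alone, ESRG on VN (0.677) and SALL4 on VNP2 against VN (-0.189) lost the call and TDGF1 on VN (0.942) gained it, as it did without a filter (0.942). DPPA4 on VNP2 against Matrigel lost it without length offsets (0.159) and without a filter (0.184), and LIN28B on VN gained it at a mean count of at least 50 (-0.112). The epithelial genes called were 4 without length offsets, 1 at a mean count of at least 50 and 1 with DESeq2 for VN against Matrigel, 2 and 3 with the latter settings for VNP2 against Matrigel, and 1 at a mean count of at least 50 for VNP2 against VN. Causes were not tested. Leaving out a library gave 1207 to 3889, 1638 to 3604, 544 to 1985 and 1916 to 4958 called genes in the order above. It gave 1 to 3 called of the 10 genes for VN against Matrigel and 3 to 6 for VNP2 against Matrigel. The log2 values ranged from 0.587 to 0.833 for ESRG on VN, 0.801 to 1.1 for TDGF1 on VN, -1.94 to -1.21 for TDGF1, 0.138 to 0.238 for DPPA4 and -0.274 to -0.231 for SALL4 on VNP2 against Matrigel, and -0.223 to -0.165 for SALL4 on VNP2 against VN. Where a Matrigel library was left out, the lone one was assumed to vary like the other groups. The log2 ratios of mean levels moved by more than 1 SD between TPM and the authors' normalized counts for 4 genes. On the latter scale, VN and VNP2 against Matrigel gave -0.56 and -0.669 for LIN28A, -0.112 and -0.0322 for LIN28B, 0.0201 and 0.183 for DPPA4 and -0.066 and -0.256 for SALL4, beside -0.478 and -0.601, -0.0287 and 0.0357, 0.103 and 0.252, and 0.0162 and -0.188 in TPM. For these abundant genes a difference under about 0.1 therefore depends on the scaling. With 1 mismatch allowed, 2 promoter windows held the octamer in place of 0.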

Other observations

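Genes of the oligodendrocyte lineage were read beside the pluripotency genes. Of 10 tested neural and oligodendrocyte progenitor markers, 4 rose and 2 fell on VN against Matrigel, 6 rose and 2 fell on VNP2 against Matrigel, and 2 rose on VNP2 against VN (NKX2-2 and VIM), where 15.3, 16.6 and 5.1% of all genes were called. OLIG1, a factor of the lineage, held 1510 and 1538 normalized counts on Matrigel, 1984, 1790 and 1839 on VN, compared with 1987, 1962 and 2109 on VNP2. NKX2-2, a ventral neural tube factor, rose on VNP2 against VN (log2 0.26 ± 0.0575, edgeR adjusted p = 0.0254), and the intermediate filament gene NES fell on both substrates against Matrigel, by 0.28 on VN and by 0.33 on VNP2 on the log2 scale. VIM, an intermediate filament gene of many cell types, rose on VNP2 against VN (log2 0.23 ± 0.0302, edgeR adjusted p = 0.00176) and fell on both against Matrigel. Relative to POU5F1, the TPM of SALL4 was 4.32 and 4.61 times as high on Matrigel, 3.18 to 3.76 times on VN and 7.31 to 11.8 times on VNP2. Whether these changes occur in the cells that hold the remaining pluripotency transcripts was not tested.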
